A study of Mus musculus with 30 samples.

Results

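The methionine cycle and the enzymes that spend its product were followed in mouse liver through 10 genes, Mat1a, Mat2a, Gnmt, Ahcy, Bhmt, Bhmt2, Nnmt, Pemt, Gamt and Mtr. The genes were chosen by name, with earlier results of these data known, and all 10 had a row among the 14173 genes of the count table. The libraries were 3′ end RNA-seq libraries of whole liver from 30 male C57BL6/J mice labelled as 6 months old, 6 mice per diet and 1 library per mouse. Every mouse had eaten a 20% casein or a 20% soy control diet for 2 weeks, then its own diet for 12 weeks, and was killed after a 4 h fast.

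Cas-20% (labelled NP) held 20% casein with 0.57 g methionine and 0.41 g cysteine per 100 g of diet. Cas-5% (LP) held 5% casein with 0.15 g methionine and 0.1 g cysteine. Soy-20% + SAA (20Soy_SAA) held 20% soy with methionine and cysteine added to reach 0.58 g and 0.41 g. Soy-20% (20Soy) was the same soy diet without that addition, with 0.22 g of each. Soy-10% (10Soy) held 11.5% soy with 0.13 g of each. Cysteine fell with methionine in every restricted diet, and total protein fell with both in Cas-5% and Soy-10%, so that these changes cannot be told apart in those comparisons. The casein and soy mice had also been acclimated to different proteins. The diets were designed to ask whether restriction of either protein, matched for sulfur amino acids, gives the same response.

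In the methionine cycle, methionine is activated to S-adenosylmethionine (SAM), the methyl donor of the cell. Methyltransferases pass the methyl group to an acceptor and leave S-adenosylhomocysteine, which is hydrolysed to homocysteine. Homocysteine is either remethylated to methionine, with betaine or methyl folate as the donor, or leaves the cycle towards cysteine. Liver is the main site of these reactions, and in it much SAM is spent on making creatine and phosphatidylcholine or on methylating glycine, which disposes of excess methyl groups.

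The proximal promoters of Bhmt, Gnmt and Mat2a are shown because these genes were among those that moved most (Bhmt, Gnmt) or moved in the opposite direction (Mat2a). They are the 250 bases upstream of the start in the RefSeq promoter table for GRCm38.p6, on the minus strand, at chr13:93637759-93638008, chr17:46729166-46729415 and chr6:72439557-72439806. The table held promoters for 8 of the 10 genes. Capitals mark AGGTCA, the half-site bound by many nuclear receptors, in Bhmt, its reverse complement in Gnmt, and TATAAA, the TATA box, in Mat2a.
Bhmt: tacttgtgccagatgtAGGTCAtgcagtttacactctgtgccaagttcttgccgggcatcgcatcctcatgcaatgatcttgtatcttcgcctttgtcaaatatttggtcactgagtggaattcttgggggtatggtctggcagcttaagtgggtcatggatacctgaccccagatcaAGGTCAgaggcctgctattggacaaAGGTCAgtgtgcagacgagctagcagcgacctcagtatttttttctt
Gnmt: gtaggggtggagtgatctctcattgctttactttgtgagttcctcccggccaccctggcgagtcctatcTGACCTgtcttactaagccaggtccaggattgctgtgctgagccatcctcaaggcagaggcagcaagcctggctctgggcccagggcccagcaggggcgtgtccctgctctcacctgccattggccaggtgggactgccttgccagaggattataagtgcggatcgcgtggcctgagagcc
Mat2a: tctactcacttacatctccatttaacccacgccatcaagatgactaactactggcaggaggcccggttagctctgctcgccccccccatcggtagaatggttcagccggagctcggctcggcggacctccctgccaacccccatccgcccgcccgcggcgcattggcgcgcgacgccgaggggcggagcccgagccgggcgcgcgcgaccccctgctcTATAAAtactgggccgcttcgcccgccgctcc
AGGTCA on either strand stood 3 times in the Bhmt promoter, beginning 234, 72 and 47 bases before the start, once in Gnmt at 181 bases and once in Ahcy at 205 bases. The annotated Bhmt gene, on the minus strand, reaches chr13:93637961, so that the RefSeq start lies inside it. The Bhmt sites at 72 and 47 bases therefore lie inside the annotated gene, and the site at 234 bases lies outside it. It was present in 3 of the 8 genes and in 4607 of 32851 promoters of the same length. TATAAA stood 32 bases before the Mat2a start, in 1 of 8 genes and in 4063 (12.4%) of all promoters. On either strand, the C/EBP-ATF response element core TGATGNAA (in 3.45% of promoters), the E-box CACGTG (6.02%) and the cyclic AMP response element TGACGTCA (1.55%) were in none of the 8. No 2 of these motifs overlapped in the sequences shown.

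Libraries held between 7694015 and 14565542 counts. Levels below are normalized counts, which the authors made by dividing each library's counts by a DESeq2 size factor. Fold changes come from edgeR's quasi-likelihood test on raw counts with Benjamini-Hochberg adjustment over all genes tested, called at an adjusted p of 0.05, and are given as log2 values with their standard error (SE). Libraries 3 to 6 of Soy-20% + SAA lay above the other 26 in 1 measure. The slope of their log2 counts on the GC content of transcript 3′ ends was 0.057 to 0.221 per 10 percentage points, against −0.080 to 0.039 in the others. Library 3, at 0.057, lay nearer to Cas-20% liver 2, at 0.039, than to libraries 4 to 6, at 0.1971, 0.1965 and 0.2211. It was left out together with libraries 4 to 6. Fold changes and slopes that rest on Soy-20% + SAA are therefore also given from its livers 1 and 2 alone for most members and for the list genes named. Of 5 hepatocyte markers with a row in the table, each was detected in every diet, and their summed level ran from 673671 to 915152. Soy-10% liver 4 had a summed level of 5801 over 7 pancreatic acinar markers, against at most 5.75 in the others, and leaving it out changed 1 member call, that of Bhmt where the effect of casein restriction was set against that of soy restriction. In bulk liver, fewer cells of a type and less RNA per cell cannot be told apart.

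SAM synthesis is catalysed in adult hepatocytes mainly by the product of Mat1a, while Mat2a encodes the isoform of other tissues and of growing liver. Mat1a (ENSMUSG00000037798, chr14:41105035-41124412) had a lowest, median and highest normalized count of 25149, 32625 and 37360 in Cas-20% and of 20884, 24983 and 27702 in Cas-5%. In the soy diets it was 22389, 31477 and 33051 with added SAA, 18793, 24707 and 28607 in Soy-20%, and 19528, 21977 and 23677 in Soy-10%. The ranges of restricted and control livers overlapped for both proteins. Mat1a fell by 0.33 ± 0.10 in Cas-5% (adjusted p = 0.026) and by 0.46 ± 0.09 in Soy-10% against Soy-20% + SAA (adjusted p = 0.0061). The call in casein was lost with library totals in place of TMM factors (−0.15, adjusted p = 0.265) and without Cas-20% liver 4 or Cas-5% liver 2 (adjusted p = 0.0597 and 0.0614). The call in soy was lost against livers 1 and 2 alone (−0.23, adjusted p = 0.287).

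Mat2a (ENSMUSG00000053907, chr6:72432799-72439558) was the 1 gene that rose. It ran from 709 through a median of 945 to 1097 in Cas-20% and from 1089 through 1280 to 1393 in Cas-5%. In soy it ran from 952 through 985 to 1195 with added SAA, from 909 through 1191 to 1384 in Soy-20%, and from 1083 through 1219 to 1352 in Soy-10%. In Cas-5%, 5 of 6 livers lay above all Cas-20% livers, and in Soy-10% 3 of 6 lay above all Soy-20% + SAA livers. The rise was 0.48 ± 0.10 with casein restriction (adjusted p = 0.0022) and 0.25 ± 0.07 with soy restriction (adjusted p = 0.033). Against Soy-20% + SAA livers 1 and 2 alone it was 0.33 (adjusted p = 0.0818), and the soy call was also lost on leaving out any 1 of 7 livers, Soy-20% + SAA 3, 5 or 6 or Soy-10% 2, 3, 5 or 6 (adjusted p from 0.0567 to 0.0761). Particl, a transcript on the opposite strand that overlaps Mat2a, had a mean of 24.9 counts.

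Within each liver, the ratio of Mat1a to Mat2a counts was 35.1 ± 8.67 (SD, n = 6) in Cas-20% and 29.6 ± 3.87 in Soy-20% + SAA. It was 20.8 ± 5.31 in Soy-20%, 19.5 ± 0.996 in Cas-5% and 18.01 ± 1.47 in Soy-10%. The lowest Cas-20% liver, at 30.5, lay above the highest Cas-5% liver, at 21.3, and the lowest Soy-20% + SAA liver, at 23.5, above the highest Soy-10% liver, at 19.1. The Soy-20% livers, from 15.99 to 30.1, overlapped both. Soy-20% + SAA livers 1 and 2 were at 29.4 and 23.5.

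**Figure D1:**
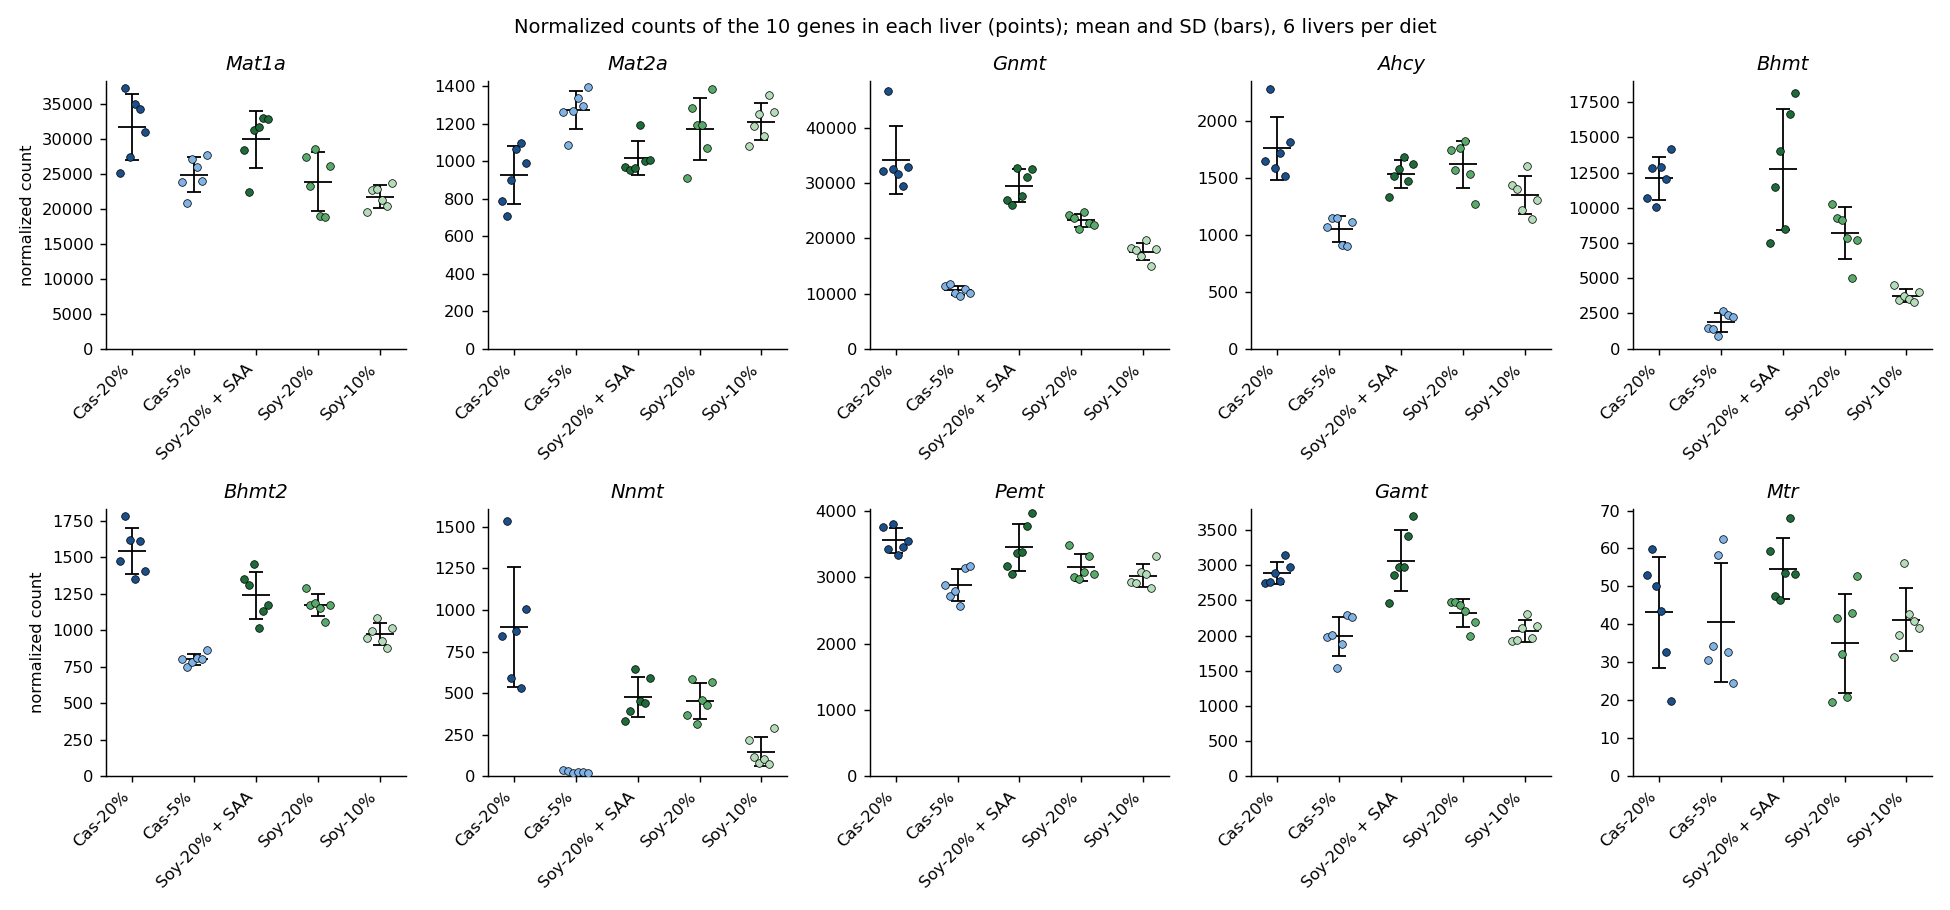
Normalized counts of the 10 genes (vertical axes, each from 0) by diet, with a point for each liver and black bars for the mean and SD of 6 livers. Nnmt in Cas-5% lies between 22.9 and 38.6 while Cas-20% livers lie between 529 and 1534, and the livers of Mtr overlap in every diet.

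Gnmt, which methylates glycine to sarcosine and disposes of excess SAM, was the member whose diets were best separated. Gnmt (ENSMUSG00000002769, chr17:46725664-46729168) ran from 29563 through a median of 32413 to 46658 in Cas-20% and from 9587 through 10477 to 11755 in Cas-5%. It ran from 26120 through 29430 to 32821 in Soy-20% + SAA, from 21614 through 23235 to 24853 in Soy-20% and from 14940 through 17934 to 19642 in Soy-10%. Apart from Cas-20% and Soy-20% + SAA, which overlapped, no neighbours in the order of diets overlapped. Each of those 3 neighbouring pairs gave p = 0.0022, the smallest that a two-sided exact permutation test of 6 against 6 can give (0.0096 after adjustment over 40 neighbouring pairs of the 10 genes). Gnmt fell by 1.68 ± 0.11 with casein restriction (3.20-fold, adjusted p = 1.3e-08) and by 0.75 ± 0.08 with soy restriction (1.68-fold, adjusted p = 0.0002). Against Soy-20% + SAA livers 1 and 2 alone the fall was 0.60 (adjusted p = 0.0052).

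Nnmt, which methylates nicotinamide, showed the widest range of the 10. Nnmt (ENSMUSG00000032271, chr9:48591877-48605153) ran from 529 through a median of 861 to 1534 in Cas-20% and from 22.9 through 27.6 to 38.6 in Cas-5%. In soy it ran from 333 through 448 to 645 with added SAA, from 315 through 444 to 584 in Soy-20%, and from 74.1 through 110 to 291 in Soy-10%. Soy-10% livers 1 and 6, at 217 and 291, were the highest of their diet but below every Soy-20% liver. Neither restricted diet overlapped its control. The fall was 4.95 ± 0.26 in casein (30.8-fold, adjusted p = 3.3e-09), the fifth largest fold among the genes called lower, and 1.70 ± 0.30 in soy (3.24-fold, adjusted p = 0.0026). Against Soy-20% + SAA livers 1 and 2 alone the value was −1.31 (adjusted p = 0.0902).

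Pemt methylates phosphatidylethanolamine to phosphatidylcholine. Pemt (ENSMUSG00000000301, chr11:59970614-60046489) had a median of 3510 in Cas-20% (3332 to 3813), 2841 in Cas-5% (2571 to 3177), 3380 in Soy-20% + SAA (3055 to 3966), 3069 in Soy-20% (2975 to 3483) and 2994 in Soy-10% (2834 to 3328). All Cas-5% livers lay below all Cas-20% livers, and the soy diets overlapped. It fell by 0.29 ± 0.07 with casein restriction (adjusted p = 0.0047), a call lost with library totals (−0.11, adjusted p = 0.228). With soy restriction the value was −0.19 ± 0.07 (adjusted p = 0.079), and −0.05 against livers 1 and 2 alone.

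Gamt makes creatine from guanidinoacetate. Gamt (ENSMUSG00000020150, chr10:80258151-80261012) had a median of 2834 in Cas-20% (2753 to 3144), 1994 in Cas-5% (1542 to 2288), 2977 in Soy-20% + SAA (2463 to 3695), 2388 in Soy-20% (1990 to 2482) and 2041 in Soy-10% (1925 to 2314). Livers of both restricted diets lay below all livers of their controls. Gamt fell by 0.52 ± 0.09 in casein (adjusted p = 0.00032) and by 0.57 ± 0.09 in soy (adjusted p = 0.0014). Against livers 1 and 2 alone, the soy fall was 0.37 (adjusted p = 0.0438).

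Ahcy, which hydrolyses S-adenosylhomocysteine, fell with casein restriction and was not called with soy restriction, and the difference between these effects is tested below. Ahcy (ENSMUSG00000027597, chr2:155059310-155074497) had a median of 1685 in Cas-20% (1515 to 2283) and of 1092 in Cas-5% (906 to 1152), with no overlap. Its soy medians were 1550 with added SAA (1336 to 1683), 1658 in Soy-20% (1271 to 1826) and 1357 in Soy-10% (1139 to 1604), which overlapped. The casein fall was 0.73 ± 0.10 (1.66-fold, adjusted p = 4.8e-05). The soy value was −0.18 ± 0.09 (adjusted p = 0.15), or −0.085 against livers 1 and 2 alone.

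Of the remethylating enzymes, Bhmt takes its methyl group from betaine, its neighbour Bhmt2 from S-methylmethionine, and Mtr, the cobalamin-dependent methionine synthase, from methyl folate. Bhmt (ENSMUSG00000074768, chr13:93616675-93637961) ran from 10031 through a median of 12407 to 14194 in Cas-20% and from 935 through 1863 to 2675 in Cas-5%. It ran from 7534 through 12739 to 18130 in Soy-20% + SAA, from 5028 through 8500 to 10286 in Soy-20% and from 3338 through 3633 to 4485 in Soy-10%. Each restricted diet lay wholly below the other 3 diets, and Cas-5% lay wholly below Soy-10%. Bhmt fell by 2.69 ± 0.21 in casein (6.43-fold, adjusted p = 1.1e-07) and by 1.76 ± 0.19 in soy (3.38-fold, adjusted p = 0.0002). Against livers 1 and 2 alone the soy fall was 1.34 (adjusted p = 0.00042).

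Bhmt2 (ENSMUSG00000042118, chr13:93655720-93674302) had a median of 1542 in Cas-20% (1354 to 1781), 806 in Cas-5% (747 to 864), 1240 in Soy-20% + SAA (1015 to 1452), 1174 in Soy-20% (1056 to 1289) and 970 in Soy-10% (881 to 1086). Cas-5% lay below all livers of the other diets, and 5 of 6 Soy-10% livers lay below all Soy-20% + SAA livers. The fall was 0.93 ± 0.07 in casein (1.90-fold, adjusted p = 1.7e-07) and 0.35 ± 0.09 in soy (adjusted p = 0.016), or 0.46 against livers 1 and 2 alone (adjusted p = 0.0117). The ratio of Bhmt to Bhmt2 counts within a liver was 7.94 ± 1.51 (SD, n = 6) in Cas-20%, 10.4 ± 3.86 in Soy-20% + SAA, 6.95 ± 1.22 in Soy-20%, 3.88 ± 0.470 in Soy-10% and 2.303 ± 0.793 in Cas-5%. All Cas-5% livers, up to 3.30, lay below the lowest Soy-10% liver, at 3.45, and Soy-20% + SAA livers 1 and 2 were at 5.57 and 8.76.

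Mtr (ENSMUSG00000021311, chr13:12182712-12258113) was read at low depth. Its medians were 46.8 in Cas-20% (19.9 to 59.8), 33.6 in Cas-5% (24.6 to 62.4), 53.4 in Soy-20% + SAA (46.5 to 68.0), 37.0 in Soy-20% (19.7 to 52.6) and 39.98 in Soy-10% (31.5 to 56.2). Livers of all diets overlapped, and edgeR called no difference between 2 diets with all their livers in. In Soy-10% and in Soy-20%, 5 of 6 livers lay below all Soy-20% + SAA livers. Without Soy-10% liver 3, the fall in Soy-10% against Soy-20% + SAA was called (−0.52, adjusted p = 0.031). The values were −0.09 ± 0.26 in casein (adjusted p = 0.85, positive at 0.10 with library totals) and −0.41 ± 0.15 in soy (adjusted p = 0.067), or −0.39 against livers 1 and 2 alone.

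**Figure D2:**
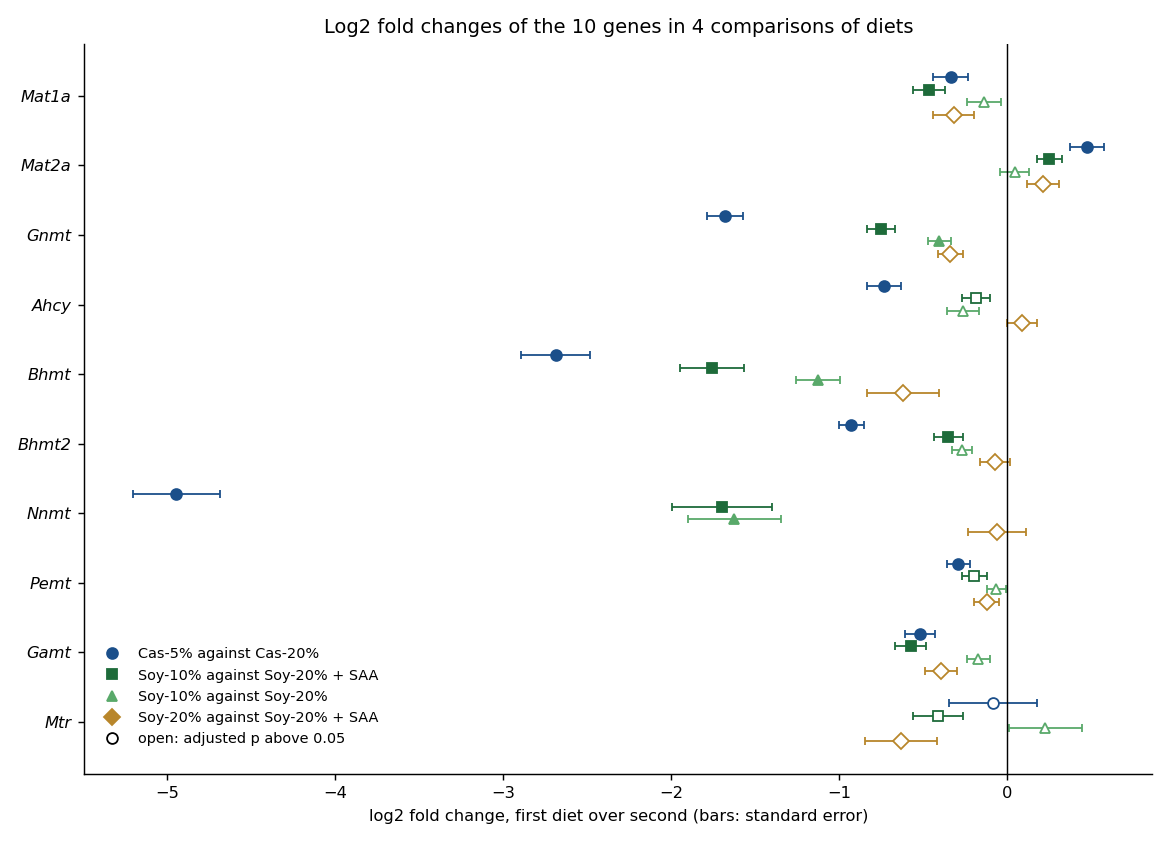
Log2 fold changes (horizontal axis, first diet over second, bars for the SE) of the 10 genes in 4 comparisons, with filled symbols for an adjusted p of at most 0.05. The fall of Nnmt reaches −4.95 in casein and −1.70 in soy, and Mat2a is the 1 gene to the right of 0 in both.

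Counted together, casein restriction lowered 8 of the 10 genes (13.3% of 12076 genes fell) and raised 1 (11.6% rose), 9 calls in all against 24.9% of genes. Livers of the 2 casein diets did not overlap for 7 of the 10, against 12.9% of genes. The median over the 10 was −0.63, beside 0.02 over all genes tested. With library totals in place of TMM factors, a choice made after the data were seen, 7 of the 10 were called, and of all genes 3849 rose and 812 fell in place of 1397 and 1611. Other measures moved in the same comparison, and their part in the result was not tested. Of 5 red blood cell markers, 4 fell, with a summed level of 15728 to 34944 in Cas-20% and 11503 to 19812 in Cas-5%. Of 6 stellate cell and fibroblast markers, 2 rose, with a sum of 3273 to 4127 against 3799 to 5168. Of 6 endothelial markers, 2 rose, with a sum of 2495 to 2881 against 2813 to 3131, and the 1 adipocyte marker tested fell. None of 7 Kupffer cell or 2 cholangiocyte markers was called. Of 5 hepatocyte markers 2 rose and none fell.

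Soy restriction against Soy-20% + SAA lowered 6 of the 10 genes (8.47% of 11983 genes fell) and raised 1 (8.51% rose), 7 calls against 17.0% of genes. Livers did not overlap for 4 of the 10, against 6.22% of genes. The median over the 10 was −0.44, beside −0.01 over all genes. Against livers 1 and 2 of Soy-20% + SAA alone, 4 of the 10 were called, Gnmt, Bhmt, Bhmt2 and Gamt. In that smaller comparison, 317 of all genes were called in place of 2035. With library totals, 1411 genes rose and 682 fell in place of 1020 and 1015. Of the marker lists, 1 of 5 hepatocyte and 1 of 2 cholangiocyte markers fell, and 1 of 7 Kupffer cell and 1 of 6 endothelial markers rose, and their part in the result was not tested. The summed hepatocyte markers were 686638 to 852661 in Soy-20% + SAA and 714313 to 828297 in Soy-10%.

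The remaining comparisons between diets share their livers with those above and with each other. Soy-20% lacked the methionine and cysteine that were added in Soy-20% + SAA, and the soy mice had been acclimated to Soy-20%. For Soy-20% against Soy-20% + SAA, edgeR called none of the 10 and 1 of 11932 genes (0.00838%). An unadjusted p under 0.05 was met by 6 of the 10 and by 24.2% of genes. DESeq2 called 3 of the 10 (Gnmt, Bhmt and Gamt) and 873 of 11932 genes. With all 30 livers in 1 fit, edgeR called 4 (with Mat1a) and 1793 of 12561 genes. Gnmt was the 1 gene of the 10 whose livers did not overlap, against 2.04% of genes. Its value was −0.34 ± 0.08 (adjusted p = 0.062), or −0.19 against livers 1 and 2 alone. In that smaller comparison edgeR called none of the 10 and 0 of 12396 genes.

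Soy-10% held less soy protein than Soy-20% and also less methionine and cysteine, 0.13 against 0.22 g of each, which cannot be told apart. Against Soy-20%, Soy-10% lowered 3 of the 10, Gnmt, Bhmt and Nnmt. Of 11897 genes, 0.546% fell and 0.866% were called in either direction. The livers of all 3 did not overlap, against 1.34% of genes. Gnmt fell by 0.40 ± 0.07 (adjusted p = 0.0078), Bhmt by 1.13 ± 0.13 (adjusted p = 0.0006) and Nnmt by 1.62 ± 0.28 (adjusted p = 0.0087). Bhmt2, at −0.27 ± 0.06, did not pass (adjusted p = 0.055). This comparison does not use Soy-20% + SAA livers.

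Between the control diets, Cas-20% against Soy-20% + SAA, edgeR called none of the 10 and 2.43% of 11988 genes. An unadjusted p under 0.05 was met by Bhmt2 and Nnmt, 2 of the 10, and by 26.2% of genes. DESeq2 called the same 2, and 1130 of 11988 genes. Nnmt had a value of 0.91 ± 0.23 (adjusted p = 0.051), or 1.297 over livers 1 and 2 alone (adjusted p = 0.505), with 4 of 6 livers above all Soy-20% + SAA livers. Of 5 red blood cell markers, 4 were higher in Cas-20%. Their part in these values was not tested.

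Between the restricted diets, Cas-5% holds 0.15 g methionine, 0.1 g cysteine and 5% casein, and Soy-10% 0.13 g of each and 11.5% soy. Protein source, protein amount and the gaps in methionine and cysteine cannot be told apart here. Cas-5% was lower than Soy-10% for 5 of the 10 (6.14% of 12041 genes were lower, 10.7% called in either direction). Livers did not overlap for 4 of the 10, against 5.86% of genes. Nnmt was lower by 2.34 ± 0.32 (5.06-fold, adjusted p = 0.00017) and Bhmt by 0.999 ± 0.18 (1.998-fold, adjusted p = 0.0018). Gnmt was lower by 0.71 ± 0.07 (adjusted p = 1.1e-05), Ahcy by 0.35 ± 0.09 (adjusted p = 0.015) and Bhmt2 by 0.26 ± 0.06 (adjusted p = 0.0097). Of 6 stellate cell and fibroblast markers, 4 were higher in Cas-5%, with a sum of 3799 to 5168 against 3459 to 4032. Of 2 cholangiocyte markers 1 was higher, and 1 of 5 red blood cell markers and the 1 adipocyte marker tested were lower. Their part in these values was not tested.

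The difference between the casein effect and the soy effect was itself tested over 24 livers. It was called negative, a deeper fall with casein, for 5 of the 10. Of 12532 genes, 8.69% were called in either direction and 5.49% in that direction. Casein was cut from 20% to 5% but soy from 20% to 11.5%, so that protein source and depth of protein restriction cannot be told apart. The difference was −3.26 ± 0.43 for Nnmt (adjusted p = 0.00012), −0.93 ± 0.13 for Gnmt (adjusted p = 0.0002) and −0.58 ± 0.11 for Bhmt2 (adjusted p = 0.0035). It was −0.55 ± 0.14 for Ahcy (adjusted p = 0.014) and −0.94 ± 0.29 for Bhmt (adjusted p = 0.044). With Soy-20% + SAA livers 1 and 2 alone as the soy control, the differences were −3.64, −1.09, −0.48, −0.65 and −1.35 for Nnmt, Gnmt, Bhmt2, Ahcy and Bhmt. All 5 were called, among 296 of 13035 genes. The Bhmt call was lost on leaving out any 1 of 14 of the 24 livers (adjusted p from 0.0527 to 0.0783). These were Cas-20% livers 2, 4, 5 and 6, Cas-5% livers 1, 2 and 3, Soy-20% + SAA liver 4 and all 6 Soy-10% livers.

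Over all 30 livers, with protein source as a term, a slope on dietary methionine was called for 9 of the 10 genes (31.4% of 12561 genes). It was positive for 8 (15.7% of genes) and negative for 1 (also 15.7%). Methionine was set per diet, with cysteine lower wherever it was low and protein lower in Cas-5% and Soy-10%, so that these cannot be told apart. With methionine plus cysteine in place of methionine, 3948 genes were called in place of 3949. These livers are those of the comparisons above. Per 0.1 g of methionine per 100 g of diet, fitted log2 levels rose by 0.62 ± 0.11 for Nnmt (adjusted p = 6.2e-05), 0.47 ± 0.05 for Bhmt (adjusted p = 4.7e-08) and 0.26 ± 0.03 for Gnmt (adjusted p = 3.2e-08). Smaller positive slopes were called for Bhmt2 (0.13), Gamt (0.12), Mat1a (0.09), Ahcy (0.09) and Pemt (0.05). Mat2a had a slope of −0.08 ± 0.02 (adjusted p = 0.00019), and Mtr 0.08 ± 0.04 (adjusted p = 0.13). Without Cas-20% liver 6, the Mtr slope was called (0.09, adjusted p = 0.048). With livers 1 and 2 alone for Soy-20% + SAA, 9 of the 10 and 3142 of 13097 genes were called, with slopes of 0.88 for Nnmt, 0.54 for Bhmt and 0.31 for Gnmt. In the 3 soy diets alone, Nnmt (0.23, adjusted p = 0.0552) and Ahcy (0.02, adjusted p = 0.509) did not pass.

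**Figure D3:**
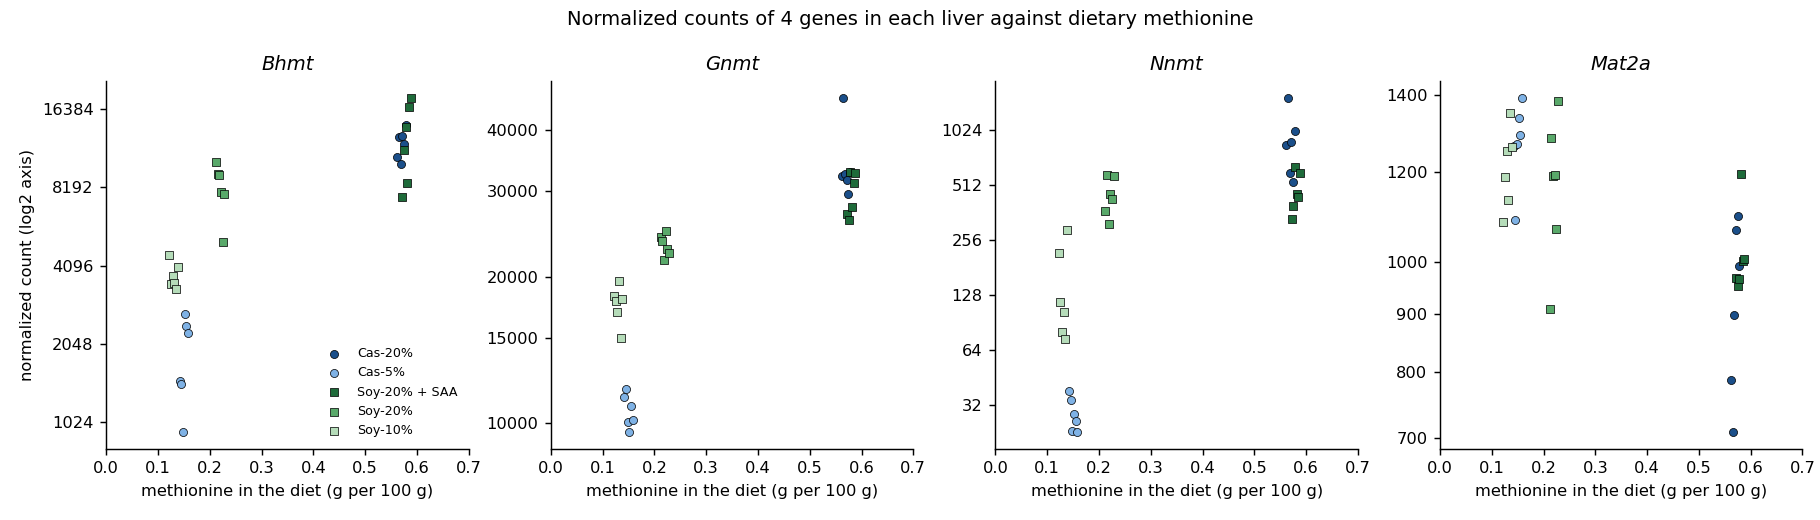
Normalized counts (vertical, log2 axis with its own range for each gene) of Bhmt, Gnmt, Nnmt and Mat2a in each liver against the methionine content of the diet, with circles for casein and squares for soy, spread slightly sideways. Bhmt, Gnmt and Nnmt are lowest in Cas-5% (0.15 g methionine, 0.1 g cysteine, 5% casein) and next lowest in Soy-10% (0.13 g of each, 11.5% soy). Mat2a is lowest in Cas-20% on average.

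The order of the 5 diets was described by exact permutation tests between neighbours, adjusted over 40 pairs, with all 6 livers of each diet. Bhmt followed Soy-20% + SAA and Cas-20%, not distinguished (exact permutation p = 0.742), then Soy-20%, Soy-10% and Cas-5%, each lower than the last (exact permutation tests, adjusted p = 0.0157, 0.0096 and 0.0096). Nnmt was highest in Cas-20% (898 ± 360, SD, n = 6), then 477 ± 119 in Soy-20% + SAA and 454 ± 107 in Soy-20%, which were not distinguished (exact permutation p = 0.719), then 147 ± 87.3 in Soy-10% and 29.1 ± 6.26 in Cas-5%. Gamt fell into an upper pair, Soy-20% + SAA and Cas-20%, and a lower group that began with Soy-20% (adjusted p = 0.0096 between Cas-20% and Soy-20%). No neighbours of Mat1a, Mat2a, Pemt or Mtr differed after adjustment. Together the 10 genes took 0.792% ± 0.0736 (SD, n = 6) of counts in Cas-20%, 0.752% ± 0.0857 in Soy-20% + SAA, 0.601% ± 0.0618 in Soy-20%, 0.491% ± 0.0289 in Soy-10% and 0.460% ± 0.0302 in Cas-5%.

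Among themselves, the genes were compared by Pearson's r of log2 CPM over the 26 livers without Soy-20% + SAA libraries 3 to 6. These points share libraries and diets, so that r is a description. Gnmt and Nnmt had r = 0.963, and 0.593 after the mean of each diet was removed. Gnmt and Bhmt had r = 0.915, but 0.0535 within diets. Gnmt and Ahcy kept 0.657 of 0.825 within diets, and Bhmt and Gamt 0.705 of 0.727. Mat2a ran against Gnmt, at −0.821 overall and −0.579 within diets. Among 12033 genes, the one most like Bhmt was Dmgdh (r = 0.965), which oxidizes the dimethylglycine that Bhmt makes and lies at chr13:93674433-93752833, next to Bhmt2. The gene most like both Gnmt (r = 0.976) and Bhmt2 (r = 0.947) was Aldh1l1, a folate enzyme, and the gene most like Nnmt was Aldh7a1 (r = 0.969). Mat2a was most like Impa2 (r = 0.912).

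The genes around the cycle were described from 5 lists, to be read against the 24.9% of all genes called with casein restriction and the 17.0% called with soy restriction. Soy counts against Soy-20% + SAA livers 1 and 2 alone are to be read against 317 of 12483 genes called. Of 13 partners of the cycle, casein restriction lowered 3 and raised 2, and soy restriction lowered 1 and raised 3. Adk, which removes the adenosine released with homocysteine, fell by 0.80 ± 0.09 in casein (adjusted p = 7.0e-06) and by 0.49 ± 0.07 in soy (adjusted p = 0.00065), or by 0.40 against Soy-20% + SAA livers 1 and 2 alone (adjusted p = 0.013). Cth, the last enzyme towards cysteine, fell by 1.04 ± 0.15 in casein (adjusted p = 8.3e-05) and was not called in soy, and the difference of the effects was −1.38 ± 0.25 (adjusted p = 0.0023), or −1.03 with livers 1 and 2 alone (adjusted p = 0.020). In soy, Gatm rose by 1.17 ± 0.31 (adjusted p = 0.020) and Mat2b by 0.62 ± 0.16 (adjusted p = 0.022). Over livers 1 and 2 alone the values of Gatm and Mat2b were 0.31 and 0.12, neither called (adjusted p = 0.47 and 0.64). The median over the 13 was −0.10 in casein and 0.18 in soy, beside 0.02 and −0.01 over all genes. Against livers 1 and 2 alone, 1 of the 13 was called in soy, and without Soy-20% + SAA liver 5, 2 were.

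Of 8 betaine, dimethylglycine and sarcosine genes, casein restriction lowered 5 and raised 1, and soy restriction lowered 4 and raised 2. Dmgdh fell from 2751 ± 172 (SD, n = 6) in Cas-20% to 1240 ± 152 in Cas-5%, by 1.14 ± 0.08 (adjusted p = 6.5e-08). In soy it fell from 2977 ± 538 to 1593 ± 78, by 0.90 ± 0.10 (adjusted p = 0.00023), or by 0.63 against livers 1 and 2 alone (adjusted p = 0.0028). Sardh, which oxidizes the sarcosine that Gnmt makes, fell by 0.73 ± 0.08 in casein (adjusted p = 6.2e-06) and by 0.57 ± 0.11 in soy (adjusted p = 0.0048), where the value against livers 1 and 2 alone was −0.29 (adjusted p = 0.24). Slc6a12, a betaine transporter, fell in both, by 0.84 ± 0.10 and 0.48 ± 0.07, or in soy by 0.43 against livers 1 and 2 alone (adjusted p = 0.043). Chdh, which begins betaine synthesis from choline, rose by 0.29 ± 0.06 in casein (adjusted p = 0.002) and by 0.62 ± 0.12 in soy (adjusted p = 0.0038), where the value over livers 1 and 2 alone was 0.29 (adjusted p = 0.11). Slc44a1 fell by 0.43 ± 0.09 in casein (adjusted p = 0.0019) and rose by 0.40 ± 0.11 in soy (adjusted p = 0.027). The difference of its effects was −0.84 ± 0.15 (adjusted p = 0.0015). With livers 1 and 2 alone, its soy value was 0.20 (adjusted p = 0.37) and the difference −0.64 (adjusted p = 0.022). The list medians were −0.58 and −0.30. Against livers 1 and 2 alone, 2 of the 8 were called in soy.

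Of 11 other small-molecule methyltransferases in the table, casein restriction lowered 6 and raised 1, and soy restriction lowered 3 and raised 1. Inmt, which methylates indoles, fell by 1.20 ± 0.09 in casein (adjusted p = 8.3e-08) and by 0.78 ± 0.15 in soy (adjusted p = 0.0055), where the value against livers 1 and 2 alone was −0.37 (adjusted p = 0.18). Hnmt, which inactivates histamine, fell by 1.27 ± 0.13 in casein (adjusted p = 3.0e-06), and the difference of the effects was −1.19 ± 0.27 (adjusted p = 0.0099). With livers 1 and 2 alone as the soy control, that difference was −0.63 and not called (adjusted p = 0.12), and the soy value of Hnmt was −0.64 (adjusted p = 0.011) in place of −0.08. The list medians were −0.28 and −0.08, and 1 of the 11, Hnmt, was called in soy against livers 1 and 2 alone. The soy count of 4 became 2 without Soy-20% + SAA liver 5 or 6 or without Soy-10% liver 3 or 5.

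Of 8 genes of SAM decarboxylation and methionine salvage, Amd1, the SAM decarboxylase of polyamine synthesis, rose by 0.59 ± 0.09 in casein (adjusted p = 0.0002) and by 0.52 ± 0.10 in soy (adjusted p = 0.0037), or by 0.62 over livers 1 and 2 alone (adjusted p = 0.014). With Amd1, casein restriction called 2 that fell, Adi1 and Srm, and soy restriction called no other, or 3 genes in all without Soy-20% + SAA liver 1. Of 10 genes of the CDP-choline and CDP-ethanolamine routes, casein restriction lowered 4 and raised 3, and soy restriction lowered 3 and raised 4, with none called against livers 1 and 2 alone. The soy count of 7 became 4 without Soy-20% + SAA liver 5 or 6 or without Soy-10% liver 2. Etnk2, an ethanolamine kinase, fell by 1.26 ± 0.09 in casein (adjusted p = 3.8e-08) and by 0.81 ± 0.13 in soy (adjusted p = 0.0019). Pcyt2 fell in both, by 0.34 ± 0.07 and 0.56 ± 0.11, and Cept1 rose in both, by 0.37 ± 0.07 and 0.82 ± 0.18. Chpt1 fell by 0.49 ± 0.11 in casein (adjusted p = 0.0029) and rose by 0.32 ± 0.10 in soy (adjusted p = 0.036). The difference of its effects was −0.81 ± 0.15 (adjusted p = 0.0024). Against livers 1 and 2 alone, the soy values were −0.46 for Etnk2 (adjusted p = 0.064), −0.27 for Pcyt2 (adjusted p = 0.30) and 0.33 for Cept1 (adjusted p = 0.090). For Chpt1 the soy value was then 0.12 (adjusted p = 0.61) and the difference −0.62 (adjusted p = 0.062). The list medians were −0.05 and −0.07 for the salvage genes and 0.01 and −0.05 for the phospholipid routes.

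**Figure D4:**
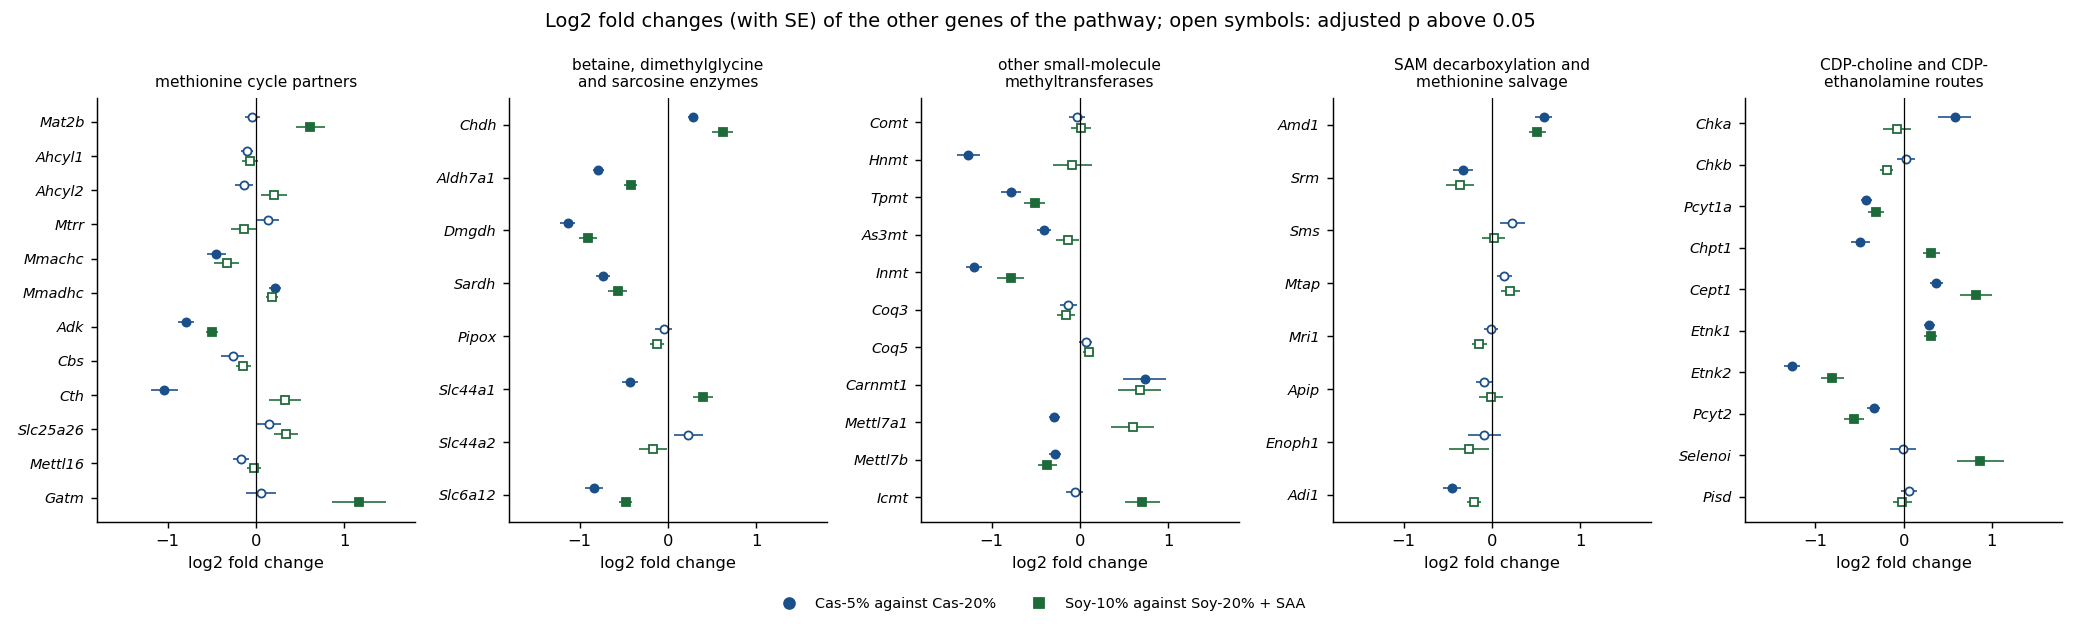
Log2 fold changes (horizontal axes, bars for the SE) of measured genes of the 5 lists, circles for Cas-5% against Cas-20% and squares for Soy-10% against Soy-20% + SAA, filled at an adjusted p of at most 0.05. Dmgdh, Inmt and Etnk2 lie left of 0 in both comparisons, and Amd1 right of 0 in both.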

How the data were processed

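Liver RNA of 30 mice was analysed, 6 per diet, grouped as labelled. The authors made 3′ libraries with the Lexogen QuantSeq kit, and processed the reads with the Bluebee pipeline 2.3.6. Reads were of 75 bp by the study's methods but of 50 bp by the labels. The build is given as GRCm38, and the aligner and annotation release are not given in the sources used here. The first deposited table holds raw counts per gene. The second holds a normalized signal, the same counts divided by the authors by DESeq2 size factors (R 4.0.3 and DESeq2 1.30 in the submitters' processing notes), with no scaling for gene length. Reads at 3′ ends sample 1 place per transcript, and genes on the opposite strand may share it.

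In R 4.3.3, edgeR 4.0.16 kept genes by filterByExpr, scaled libraries by TMM and tested 2 diets at a time with the quasi-likelihood F test, Benjamini-Hochberg adjusted over all genes tested. The casein effect minus the soy effect and the slope on methionine were fitted likewise. DESeq2 1.42.0, other scalings, no filter, a replicate block, the library GC slope as a covariate and leaving out livers were alternatives. The main edgeR fit and DESeq2 were tested on simulated counts for both restriction comparisons, the difference of the effects and the slope. The other comparisons and alternatives were not simulated. Replicate numbers were taken as names, since at most 2 of 6 same-numbered pairs in any comparison had correlated deviations over 0.1. Since each liver is 1 mouse, p-values measure the spread between mice. Python 3.11.15, numpy 2.4.6, pandas 2.3.3 and matplotlib 3.10.9 were used. Coordinates are those of the table, equal to GENCODE M21.

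A gene of the lists is counted in its list but not reported here by name. The members and lists were chosen with earlier results of these data known. All 10 members were tested in every comparison, but values are not printed for all of them in each. From each list, genes were named from the up to 4 per comparison with the smallest p, and not all of those are given. The soy value of Sardh, the casein value of Chdh and the casein and soy values of Slc44a1 and Chpt1 were added after their values were seen. For each member, the 3 genes with the highest correlation among those with a mean of at least 10 counts were found.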

Additional observations from a re-analysis of the deposited data

Results flagged for a closer look

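In a group of 6 livers, a value was looked at again when its gap to the nearest liver was over 0.625 of the group's range (Dixon's critical value), which chance gives in about 5% of groups, and 50 groups were examined. The highest Mat2a liver in Soy-20% + SAA, liver 4 at 1195.06 normalized counts, and the highest Gnmt liver in Cas-20%, liver 2 at 46657.6, met this. Liver 4 is among the Soy-20% + SAA libraries that stood apart by GC slope.

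The casein effect differed from the soy effect by a test of the difference itself (edgeR's quasi-likelihood test, Benjamini-Hochberg adjusted) for Nnmt at −3.26, Bhmt at −0.94, Gnmt at −0.93, Bhmt2 at −0.58 and Ahcy at −0.55, on the log2 scale. The soy control of this contrast holds those 4 libraries, and protein was cut to 5% in casein but to 11.5% in soy.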

How the results depend on the processing

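Of 1260 values recomputed with 1 liver left out, 1204 kept their direction and call, 23 lost the call, 16 gained it and 17 changed sign. Of 660 under the other settings, 607 kept both, 16 lost the call, 16 gained it and 21 changed sign. The cause was not tested for any of them. Among the members, 4 were called in Soy-10% against Soy-20% + SAA without libraries 3 to 6. In Soy-20% against Soy-20% + SAA, DESeq2 called 3 members, the fit of all 30 livers 4, and leaving out 1 liver 0 to 3. In Cas-20% against Soy-20% + SAA, DESeq2 called 2, library totals without TMM (chosen after seeing the data) 1, the fit of all 30 livers 2, and leaving out 1 liver 0 to 2. Leaving out 1 liver gave 8 to 9 members called in casein, 6 to 8 in soy and 4 to 5 for the difference of the effects.

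Replicate numbers were taken as names, and same-numbered livers were not compared with differently numbered ones, so that a pairing is not excluded. With the replicate block, 8 members were called in casein and 6 in Soy-10% against Soy-20% + SAA, and Mat1a in casein (adjusted p = 0.0585) and Mat2a in soy (adjusted p = 0.0541) lost the call.

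With library totals, Mtr was 0.10 in casein, and in Cas-5% against Soy-10% Pemt was 0.029, Gamt 0.047 and Mtr 0.073. With the GC slope as a covariate, Mtr was 0.24 in casein. In Soy-20% against Soy-20% + SAA, Nnmt was 0.10 with the GC covariate and 0.32 without libraries 3 to 6, and Pemt 0.013 and 0.016. In Cas-20% against Soy-20% + SAA, Bhmt was 0.18 and 0.35, and Gamt 0.058 and 0.11. For the difference of the effects, Mat1a was −0.048, −0.11 and, with Soy-20% as the control, −0.20, Gamt −0.075, −0.15 and −0.35, Mtr −0.32 with Soy-20%, and Pemt 0.017 with library totals. Leaving out 1 liver gave ranges of −0.25 to 0.028 for Mtr in casein, −0.15 to 0.035 for Nnmt in Soy-20% against Soy-20% + SAA, −0.0135 to 0.10 for Mat2a in Soy-10% against Soy-20% and −0.18 to 0.063 for Bhmt in Cas-20% against Soy-20% + SAA. In Cas-5% against Soy-10% they were −0.075 to 0.033 for Gamt and −0.17 to 0.11 for Mtr, and −0.011 to 0.12 for Gamt in the difference of the effects.

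Over all genes, library totals moved the median in casein from 0.02 to 0.20 and called 4661 genes in place of 3008. Soy-20% against Soy-20% + SAA called 1 gene, but 873 by DESeq2 and 1793 in the fit of all livers. Cas-20% against Soy-20% + SAA called 291, but 1130 by DESeq2, 2331 in the fit of all livers, 141 with the block, 9 with the GC covariate and 3 without libraries 3 to 6. Soy-10% against Soy-20% called 103, 216 by DESeq2 and 62 in the fit of all livers. Soy-10% against Soy-20% + SAA called 2035, 310 with the GC covariate and 3077 in the fit of all livers. The difference of the effects called 1089, 528 with the GC covariate and 296 without libraries 3 to 6. Depth limits Mtr most, since its mean was under 60 normalized counts in every diet.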
